A study of Mus musculus with 12 samples.

Results

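The oligodendrocyte lineage was followed in the hypothalamus through 10 genes that mark its early stages. Of these, 6 mark oligodendrocyte precursor cells (*Pdgfra*, *Cspg4*, *Vcan*, *Lhfpl3*, *C1ql1* and *Tnr*) and 4 mark newly formed oligodendrocytes (*Gpr17*, *Bcas1*, *Enpp6* and *Neu4*). The genes were chosen by symbol, and all 10 were listed on both diets, among 16855 genes on chow and 16744 on the high-fat diet (HFD). The RNA came from the hypothalamus of 12 male C57BL/6J mice aged 8 weeks, in 4 groups of 3. WT (+/+) and *Gpr75*-/- littermates were either kept on chow or given a HFD for 2 weeks from 6 weeks of age. The *Gpr75*-/- line carries a CRISPR/Cas9 edit near the start of the coding sequence in every cell of the body, so the data cannot say in which cells the receptor was missed. Because an edit of this kind can leave the mRNA in place, *Gpr75* mRNA does not check the genotype labels. Its level was 308 normalized counts in WT and 453 in *Gpr75*-/- mice on chow, and 389 and 361 on the HFD.

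Oligodendrocyte precursor cells persist in the adult brain, where they divide slowly and keep giving rise to new oligodendrocytes. They carry the PDGF receptor alpha and the NG2 proteoglycan on their surface and are embedded in a matrix to which they contribute. On leaving the precursor state they pass through a short newly formed stage, in which *Gpr17*, *Bcas1*, *Enpp6* and *Neu4* are switched on before the compact myelin genes reach their full level. Newly formed cells are therefore often read as a sign of ongoing oligodendrocyte production.

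The values used are 1 number per gene and group, the level of the group, with no value of a single mouse. Each group level behaved as a mean of log2 values over the mice and is given here on the scale of normalized counts. The authors rounded these numbers, and rounding alone left a range around each difference between genotypes, with a median half-width of 0.04 on the log2 scale. That range is printed with each difference. It is not an error between mice, whose spread is not part of the values used, and so no difference below has been tested or shown to be larger than the spread between mice. Counting error for the difference, as a standard error on the log2 scale, was between 0.02 for *Bcas1* and 0.09 for *Vcan* on the HFD, so a difference beyond the rounding range can still lie within counting error. The mean mouse had 18280462 normalized counts on chow and 19420111 on the HFD. In whole tissue, fewer cells of a type and less RNA per cell cannot be told apart.

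In the genome coordinates of the deposited tables (GRCm39), *Enpp6* (ENSMUSG00000038173) lies on chromosome 8 from 47439922 to 47549797. *Bcas1* (ENSMUSG00000013523) lies on chromosome 2 from 170188911 to 170269765, *Vcan* (ENSMUSG00000021614) on chromosome 13 from 89803431 to 89890628 and *Neu4* (ENSMUSG00000034000) on chromosome 1 from 93948173 to 93956056. *Pdgfra* (ENSMUSG00000029231) lies on chromosome 5 from 75312953 to 75358876, as does *Lhfpl3* (ENSMUSG00000106379), from 22951057 to 23480595. *Cspg4* (ENSMUSG00000032911) lies on chromosome 9 from 56772317 to 56807154, *C1ql1* (ENSMUSG00000045532) on chromosome 11 from 102830090 to 102837514 and *Tnr* (ENSMUSG00000015829) on chromosome 1 from 159351339 to 159759299. All 10 are annotated as protein-coding.

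The 10 genes covered a wide span of levels. Per kilobase of exon, *Bcas1*, a gene of early myelinating cells, was highest, with a mean of 1205 normalized counts per kilobase over the 6 chow-fed mice. *Lhfpl3*, which encodes a tetraspan membrane protein, followed with 498, and *Gpr17*, which encodes a G protein–coupled receptor that restrains maturation, with 212. Next came *C1ql1* with 159, *Pdgfra* with 115, *Tnr* with 75.9 and *Neu4* with 53.4. *Cspg4*, with 47.3 normalized counts per kilobase, *Enpp6*, with 41.2, and *Vcan*, with 14.1, were the lowest. The order was the same on the HFD, from 1207 for *Bcas1* to 13.2 for *Vcan*. The exon length counts every annotated exon, so genes with long exons that are not used in this tissue are placed too low. Without the spread between mice, neighbors in this order such as *Neu4* and *Cspg4* were not shown to differ.

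**Figure D1:**
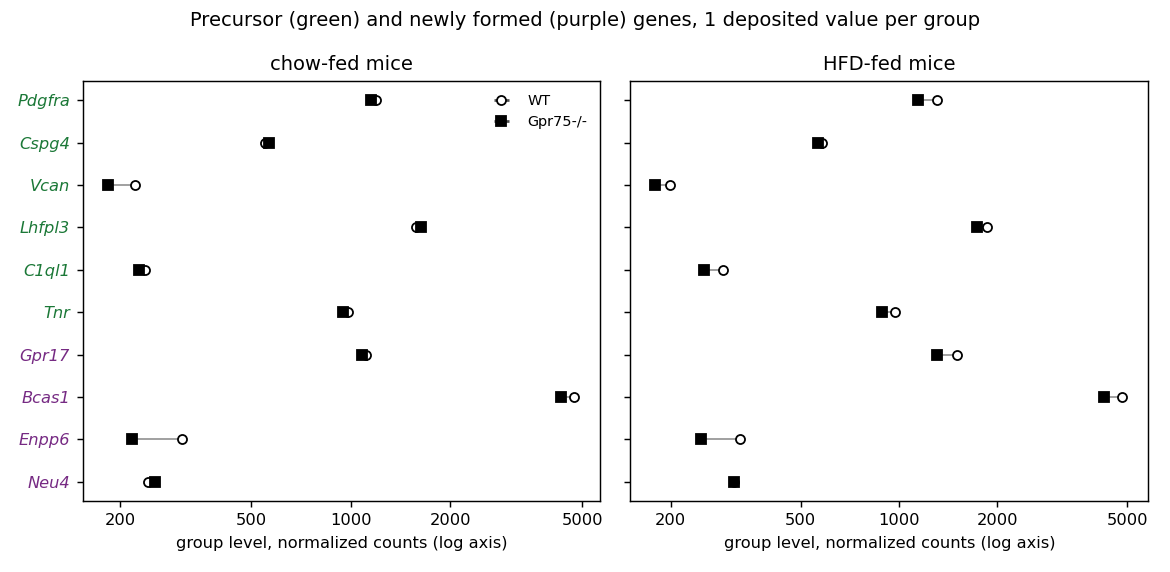
Group level of each gene in normalized counts (log axis) in WT mice (open circles) and *Gpr75*-/- mice (filled squares), on chow at left and on the HFD at right, with 1 deposited value per group. The range left by rounding is smaller than the symbols. *Enpp6* has the widest gap between the genotypes on the log axis on both diets, from 308 to 218 on chow and from 327 to 247 on the HFD.

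On the chow diet, the precursor genes showed little difference between the genotypes apart from *Vcan*. *Vcan* encodes versican, a chondroitin sulfate proteoglycan of the matrix. Its level was 223 normalized counts in WT and 184 in *Gpr75*-/- mice, a ratio of 0.825 and a log2 difference of -0.28 (rounding range -0.31 to -0.25). *C1ql1*, which encodes a secreted C1q-like protein, was at 238 and 228, a log2 difference of -0.06 (-0.10 to -0.03) that was smaller than its counting error of 0.08. *Pdgfra*, the receptor for the PDGF-A that keeps precursors dividing, was at 1190.2 in WT and 1151 in *Gpr75*-/- mice (log2 difference -0.05, -0.10 to 0). *Tnr*, which encodes the matrix glycoprotein tenascin-R, was at 976 and 945 (-0.05, -0.09 to 0). These last differences were a single step of the rounding and have no clear sign. *Cspg4*, the gene of the NG2 proteoglycan, was at 549 in WT and 565 in *Gpr75*-/- mice (0.04, 0 to 0.08). *Lhfpl3* was at 1570.3 and 1627 (0.05, 0 to 0.10). The precursor stage as a whole had a median log2 difference of -0.05 (rounding range -0.09 to 0), beside a median of 0 over the 16201 genes kept on chow.

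The newly formed genes differed among themselves on chow more than the precursor genes did. *Enpp6*, which encodes a choline-specific phosphodiesterase, was at 308 normalized counts in WT and 218 in *Gpr75*-/- mice, a ratio of 0.707 and a log2 difference of -0.50 (rounding range -0.53 to -0.47). Only 0.870% of the genes kept had a lower difference. *Bcas1* was at 4719.95 in WT and 4331 in *Gpr75*-/- mice (log2 difference -0.12, -0.19 to -0.06). *Gpr17* was at 1113 and 1077 (-0.05, -0.10 to 0), a single rounding step. *Neu4*, which encodes a sialidase that removes sialic acids from glycoproteins and glycolipids, lay in the opposite direction, at 244 in WT and 255 in *Gpr75*-/- mice (0.07, 0.03 to 0.10), with a counting error of the same size. The median of the 4 genes was -0.09 (-0.14 to -0.03), and it was -0.05 with *Enpp6* or *Bcas1* left out and -0.12 with *Gpr17* or *Neu4* left out.

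*Enpp6* and *Neu4* were the extremes of the newly formed stage, and the 250 bases before their start sites are shown for that reason. The sequences are from RefSeq on GRCm38.p6, on the plus strand, at chr8:46986637-46986886 for *Enpp6* and chr1:94020243-94020492 for *Neu4*. Capitals mark the E-box CANNTG, bound by basic helix-loop-helix factors such as OLIG2, and AACAAT, a motif of SOX factors, searched on both strands.
Enpp6: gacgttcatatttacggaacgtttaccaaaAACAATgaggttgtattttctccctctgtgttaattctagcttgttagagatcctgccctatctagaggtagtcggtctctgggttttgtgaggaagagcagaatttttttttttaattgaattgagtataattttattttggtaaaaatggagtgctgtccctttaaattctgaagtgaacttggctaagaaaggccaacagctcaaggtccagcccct
Neu4: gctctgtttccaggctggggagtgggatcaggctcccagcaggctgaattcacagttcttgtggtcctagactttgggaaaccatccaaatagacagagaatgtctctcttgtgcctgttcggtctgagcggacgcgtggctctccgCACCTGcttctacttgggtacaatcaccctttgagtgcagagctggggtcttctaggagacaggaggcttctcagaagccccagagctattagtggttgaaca
The *Enpp6* window held 1 AACAAT and no CANNTG, and the *Neu4* window held 1 CANNTG and no AACAAT. Neither held ACAAAG, another SOX motif, or CTGGNAC, a motif of the myelin regulator MYRF. Windows were matched for 7 of the 10 genes, and CANNTG was in 4 of them (*Pdgfra*, *Vcan*, *Lhfpl3* and *Neu4*). Of 32851 promoter windows of the same length, 66.2% held CANNTG, 9.42% AACAAT, 16.5% ACAAAG and 16.1% CTGGNAC. A match is a run of letters and does not show a bound site.

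Read against all genes, the chow values were mostly ordinary. At least 1.2-fold lower in *Gpr75*-/- mice were 2 of the 10 genes, *Vcan* and *Enpp6*, where 5.25% of all genes kept and 2.23% of those with a mean count of at least 100 were, and none was at least 1.2-fold higher, where 5.37% were. Lower by more than rounding could produce were 4 of 10 (*Vcan*, *C1ql1*, *Bcas1* and *Enpp6*), beside 29.9% of all genes, and 1 of 10 (*Neu4*) was higher, beside 30.7%. The central 90% of all genes on chow lay between -0.27 and 0.27, and *Vcan* and *Enpp6* fell outside it. The range that rounding left for *Vcan*, a ratio of 0.807 to 0.843, spans the 1.2-fold threshold and the edge of that band, so rounding alone could make either count 1 of 10.

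On the HFD, 8 of the 10 genes had a lower level in *Gpr75*-/- than in WT mice by more than rounding could produce, beside 24.2% of all genes kept. Of the 6 precursor genes, 5 were among them, all but *Cspg4*. *C1ql1* was at 290.2 normalized counts in WT and 253 in *Gpr75*-/- mice, a ratio of 0.871 and a log2 difference of -0.20 (rounding range -0.23 to -0.17). *Pdgfra* was at 1307 and 1143 (ratio 0.875, log2 difference -0.19, -0.24 to -0.14). *Vcan* was at 199 and 179.7 (-0.15, -0.18 to -0.12). The matrix gene *Tnr* lay close to *Vcan*, at 972 in WT and 884 in *Gpr75*-/- mice (-0.14, -0.18 to -0.09). *Lhfpl3* was at 1857 and 1728 (-0.10, -0.16 to -0.05). *Cspg4*, at 583 and 567, was the precursor gene nearest to 0 and differed by a single rounding step with no clear sign (-0.04, -0.08 to 0). The precursor median was -0.14 (-0.18 to -0.10), beside a median of 0 over the 16297 genes kept on the HFD.

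Of the newly formed genes on the HFD, *Enpp6* again had the lowest ratio. Its level was 327 normalized counts in WT and 247 in *Gpr75*-/- mice, a ratio of 0.756 and a log2 difference of -0.40 (rounding range -0.44 to -0.37), with 1.2% of genes lower. *Gpr17* was at 1499.7 and 1307 (ratio 0.871, log2 difference -0.20, -0.25 to -0.15). *Bcas1* was at 4799 and 4225 (ratio 0.880, -0.18, -0.25 to -0.12). *Neu4* had the same deposited value in both genotypes, at 312 (log2 difference 0, -0.03 to 0.03). The newly formed median was -0.19 (-0.25 to -0.14).

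The differences on the HFD were small. Among genes with a mean count of at least 100, which all 10 have, the share lower by more than rounding was 19.5%. Higher by more than rounding were none of the 10, beside 32.5% of all genes. At least 1.2-fold lower was 1 gene, *Enpp6*, beside 3.63% of all genes and 1.44% of those with a mean count of at least 100, and none was at least 1.2-fold higher, beside 4.45%. The central 90% of all genes lay between -0.225 and 0.25, which left *Enpp6* as the gene outside it. The rounding ranges of *Pdgfra* (down to -0.241), *C1ql1* (-0.232), *Gpr17* (-0.248) and *Bcas1* (-0.245) cross the lower edge of that band. Rounding alone could thus place these genes outside it too. The 10 genes mark overlapping sets of cells and come from the same mice, so they are not 10 independent observations.

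**Figure D2:**
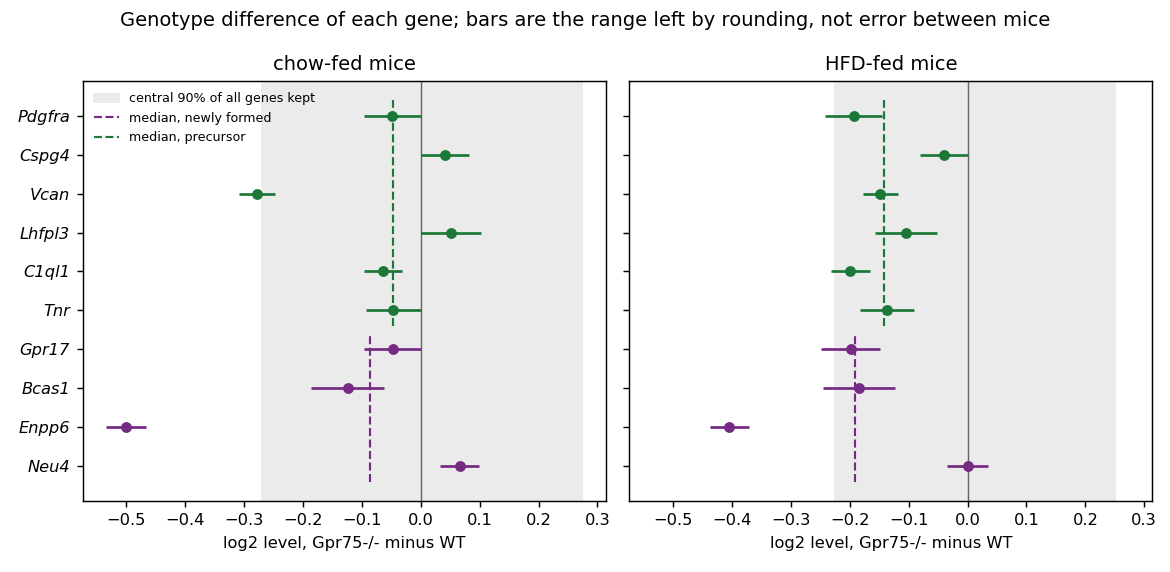
Log2 level in *Gpr75*-/- minus WT mice for each precursor (green) and newly formed (purple) gene, on chow at left and on the HFD at right. Horizontal bars are the range left by rounding, dashed lines the median of each stage, and the gray band the central 90% of all genes kept. On the HFD the bars of 8 of 10 genes lie wholly below 0, beside 24.2% of all genes, and *Enpp6* lies outside the band on both diets.

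The stages were compared directly by the difference of their medians. On chow the newly formed median was 0.04 below the precursor median on the log2 scale (newly formed minus precursor -0.04, rounding range -0.14 to 0.06). On the HFD the same difference was -0.05 (-0.14 to 0.04). Both ranges hold 0, so rounding alone is enough to leave the order of the stages unknown on either diet. On chow the difference depended on single genes, and it was -0.00 with *Enpp6* or *Bcas1* left out.

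Because each diet had its own WT and *Gpr75*-/- mice, the values on the diets share no animals. The genotype difference was lower on the HFD than on chow by more than rounding for 4 of the 10 genes, beside 25.4% of all genes kept on both diets, and higher for 2, beside 30.4%. The HFD difference minus the chow difference was -0.16 for *Lhfpl3* (rounding range -0.26 to -0.05), -0.14 for *Pdgfra* (-0.24 to -0.05) and -0.13 for *C1ql1* (-0.20 to -0.07). It had no clear sign for *Tnr* (-0.09, -0.18 to 0.00) and *Cspg4* (-0.08, -0.16 to 0), and was in the other direction for *Vcan* (0.13, 0.07 to 0.19). Among newly formed genes it was -0.15 for *Gpr17* (-0.25 to -0.05), -0.06 for *Bcas1* (-0.18 to 0.06), -0.07 for *Neu4* (-0.13 to 0.00) and 0.10 for *Enpp6* (0.03 to 0.16). All 10 values lay within the central 90% of the 16000 genes kept on both diets, which was -0.31 to 0.34. Whether the genotype difference of any of these genes differed between the diets was not tested.

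**Figure D3:**
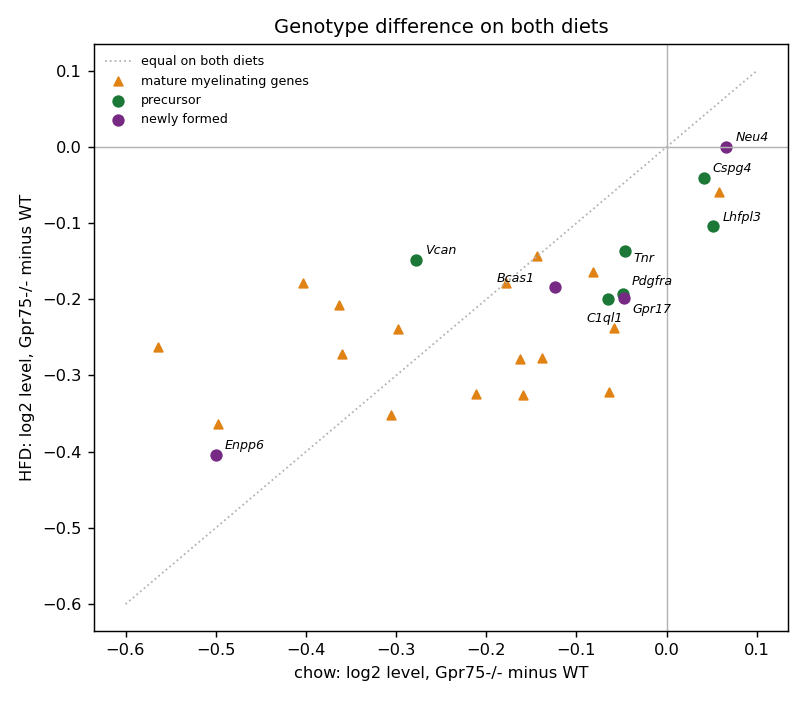
Log2 level in *Gpr75*-/- minus WT mice on chow (horizontal axis) and on the HFD (vertical axis) for precursor genes (green), newly formed genes (purple) and 17 genes of mature myelinating oligodendrocytes (orange triangles). The dotted line marks equal values. *Enpp6* lies at -0.50 and -0.40, near the lowest mature genes, and *Neu4*, *Cspg4* and *Lhfpl3* lie to the right of 0 on chow.

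Other genes of the same stages were read against the same shares of all genes, 29.9% lower and 30.7% higher by more than rounding on chow, and 24.2% and 32.5% on the HFD. Whether these genes are confined to those stages in the hypothalamus was not tested. Of 11 further precursor genes, 5 were lower and 2 higher on chow by more than rounding, and the counts were equal on the HFD, with medians of -0.02 and -0.04. *Sox6*, a transcription factor gene that keeps precursors immature, was among the lowest in the mean over both diets, at -0.20 on chow and -0.23 on the HFD. The highest in that mean was *Susd5* (0.06 and 0.16). Of 10 further newly formed genes, 9 were kept. On chow 4 were lower and none higher by more than rounding (median -0.06), and on the HFD 7 were lower and 1 higher (median -0.12), again beside 29.9% of all genes lower on chow and 24.2% on the HFD. The noncoding RNA *9630013A20Rik*, a marker of this stage, was the lowest, at -0.33 on chow and -0.67 on the HFD. *Itpr2*, an IP3 receptor gene, was at -0.12 and -0.16, and *Tmem163*, with the highest mean over both diets, was at 0.05 on each.

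Of 17 genes of mature myelinating cells, 13 were lower on chow by more than rounding, beside 29.9% of all genes, and 16 on the HFD, beside 24.2%. Their median was -0.18 on chow (rounding range -0.26 to -0.11) and -0.26 on the HFD (-0.31 to -0.18), and these ranges overlap those of the newly formed median on both diets. They lie below the range of the precursor median on both diets, though on the HFD both ranges reach -0.18. At least 1.2-fold lower were 7 of them on chow, beside 5.25% of all genes, and 8 on the HFD, beside 3.63%. *Aspa*, the gene of aspartoacylase, was at -0.56 and -0.26, and *Opalin*, a myelin membrane protein gene, at -0.50 and -0.36, so *Enpp6* lay close to *Opalin* on both diets. *Apod* was the highest, at 0.06 and -0.06. Of 8 transcription factors of the lineage, 5 were lower on chow and 6 on the HFD by more than rounding (medians -0.11 and -0.14), beside the same 29.9% and 24.2%. *Olig2*, which specifies the lineage, was at -0.14 and -0.27 and *Sox10*, its partner in differentiation, at -0.19 and -0.14. *Zfp488*, a gene of differentiating oligodendrocytes, was at 0.15 on chow and -0.23 on the HFD. Whether the mature genes differed from the early stages was not tested, and these lists were picked with earlier results of the same mice known.

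**Figure D4:**
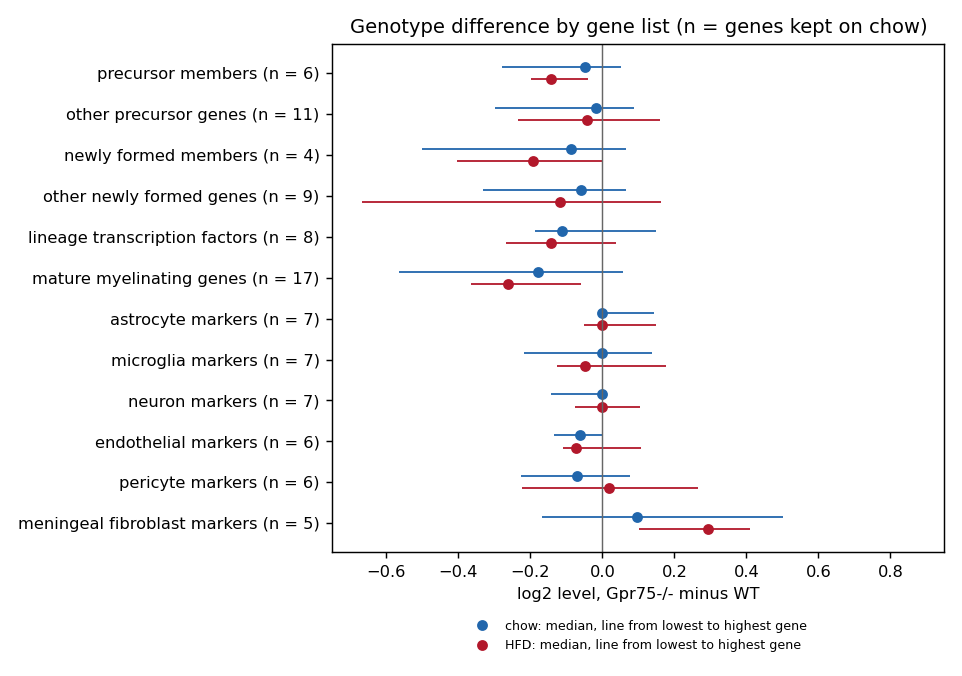
Log2 level in *Gpr75*-/- minus WT mice for 12 gene lists on chow (blue) and on the HFD (red). Points are medians over the genes of a list, and lines run from the lowest to the highest gene. The medians of the 6 oligodendrocyte lineage lists lie below 0 on both diets, as do those of the endothelial genes (-0.06 and -0.07). On chow, the rounding ranges of both precursor lists and of the other newly formed genes reach 0. That of the other precursor genes reaches 0 on the HFD as well. The median of the mature myelinating genes is at -0.18 on chow and -0.26 on the HFD.

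The ligands and matrix partners of the precursor genes did not share one direction. *Pdgfa*, the main ligand of PDGFRA, was at -0.18 on chow and -0.04 on the HFD, *Pdgfb* at -0.15 and 0.06, and *Pdgfd*, whose protein acts through PDGFRB, at 0.38 and 0.07. The 5 genes for PDGF ligands and for PDGFRB had medians of 0.03 and 0.04. For the 7 matrix genes related to *Vcan* and *Tnr*, the medians were -0.05 on chow and 0 on the HFD. *Acan*, which encodes aggrecan, was at -0.61 on chow and 0.09 on the HFD, and *Hapln1*, which encodes a link protein, at 0.08 and -0.45, so the lowest gene of this list was a different one on each diet. *Tnc* was the highest, at 0.19 and 0.12. Of the C1q-like family and its receptor, 3 of 4 genes were kept (medians -0.05 and 0), and of the other sialidases 2 of 3 (medians 0.06 and 0.02). Cell division genes were near or below the limit of the tables, with none of 5 listed on chow and 2 on the HFD, so proliferation of precursors could not be read from these values.

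*Pdgfra*, *Cspg4* and *Vcan* are also made outside the lineage, *Pdgfra* and *Vcan* by fibroblasts of the meninges and *Cspg4* by pericytes. Of 5 meningeal fibroblast genes kept, 3 were higher and 1 lower on chow by more than rounding and 5 were higher on the HFD (medians 0.10 and 0.29). Their summed level was 670.1 normalized counts in WT and 713 in *Gpr75*-/- mice on chow, and 886 and 1034 on the HFD. The log2 of their mean counts lay above the mean of their group levels, after the common offset between the scales, by 0.01 to 0.07 on chow and by 0.04 to 0.34 on the HFD, a gap that opens where mice differ strongly. Of the 6 pericyte genes, 3 were lower and 1 higher on chow, and 2 were lower and 2 higher on the HFD (medians -0.07 and 0.02), with summed levels of 2807 and 2700.4 on chow and of 2841 and 2965 on the HFD. Of all genes, 29.9% were lower and 30.7% higher by more than rounding on chow, and 24.2% and 32.5% on the HFD. The part of fibroblast and pericyte RNA in the values of *Pdgfra*, *Cspg4* and *Vcan* was not tested. With these 3 genes left out, the precursor median was -0.05 on chow and -0.14 on the HFD.

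Medians on chow and on the HFD were 0 and 0 for 7 astrocyte genes, 0 and -0.05 for 7 microglia genes, 0 and 0 for 7 neuron genes, and -0.06 and -0.07 for 6 endothelial genes. Choroid plexus genes were far apart on chow, where the 4 kept had a median of 1.16, and 3 were kept on the HFD with a median of 0.11. On chow, the log2 of the mean normalized count of *Ttr*, a choroid plexus gene, was 4.22 above the mean of its group levels by the same measure. *Ttr* was at 1.21 on chow and -1.41 on the HFD. The gap between mean count and group levels lay between -0.02 and 0.03 for the 10 early oligodendrocyte genes on both diets. Of 9 hypothalamic marker genes, all were listed and kept on both diets, as the tissue label calls for. Their median was 0.06 on chow and 0.37 on the HFD, where 7 were higher by more than rounding, beside 32.5% of all genes, and 7 at least 1.2-fold higher, beside 4.45%.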

How the data were processed

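Hypothalamus mRNA libraries (SMART-Seq mRNA LP kit, paired reads on an Illumina NovaSeq) were processed by the authors on the Astrocyte platform. The submitters' notes name STAR, featureCounts, StringTie, DESeq2 and GRCm39, without versions. Replicates were the numbered mice of each title. The authors deposited 1 table per diet, normalized separately, so levels were not compared between diets. The signal the authors deposited is the mean over 6 mice of counts divided by size factors. The group columns they deposited are on a log2 scale with 2 decimals. Raising 2 to a deposited value gave a number that followed the log2 of the mean count at a constant offset (3.20 on chow, 3.29 on the HFD, from genes with a mean count of at least 100), with 90% of 12413 and 12509 genes between -0.02 and 0.02 of it. Where mice differ strongly it lay below, as a mean of log2 values does. This scale was worked out from the values, as no source used here states it.

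The tables also hold the authors' own comparisons (fold change, standard error, Wald statistic, p-values), which were not used. Differences here are the *Gpr75*-/- minus the WT group level, with the range left by 0.005 of rounding. Genes with a mean count of at least 25 and no group listed at 0 were kept. The rounding arithmetic was tested on data simulated on the scale worked out above, which does not test that scale or the spread between mice. A difference of at least 1.2-fold counts as past the threshold. No test across mice was run. Alternatives were other count minimums, folds of 1.1 and 1.5, centring, means, protein-coding genes alone and members left out. Genes named are the 10 members and, from related lists, the 2 lowest and the highest over both diets, except 1 that is not reported here. The members and lists were chosen with earlier results of these data known. Exon lengths are GENCODE M21 unions matched by Ensembl identifier (99.8% of genes), and promoters RefSeq GRCm38.p6, matched for 7 of 10 genes. Python 3.11.15, numpy 2.4.6, pandas 2.3.3 and matplotlib 3.10.9 were used.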

Additional observations from a re-analysis of the deposited data

How the results depend on the processing

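Of 54 recomputed values that the setting could move, 50 stayed within the rounding range or, for counts, within 1.5 times, and 4 did not. For the newly formed minus precursor difference, that range was wider than the difference itself on both diets. This difference could vanish or change sign and still be counted among the 50, so the count does not show that it is stable. On chow the newly formed stage was at -0.15 as a mean of its members, against a median of -0.09, with *Enpp6* at -0.50. No member was at least 1.5-fold lower, 0 on chow and 0 on the HFD, beside 0.488% and 0.276% of all genes. At 1.1-fold, 2 members were lower on chow, beside 15.05% of all genes, and 6 on the HFD, beside 11.2%. With 1 member left out at a time, the newly formed minus precursor difference ran from -0.08 to -0.00 on chow and from -0.06 to -0.04 on the HFD. Another 86 could not move, because the median of all genes is 0 and all members are protein-coding with mean counts over 100, so they say nothing of stability. With a minimum of 100 counts, 2.23% of genes on chow and 1.44% on the HFD were at least 1.2-fold lower. No paired analysis was possible because the group columns hold 1 value for all mice of a group, and for the same reason no mouse was left out in turn. The counting error was larger than the half-width of the rounding range for *Vcan*, *C1ql1*, *Neu4*, *Enpp6* and *Cspg4* on both diets. The spread between mice was not measured here.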
